A study of Mus musculus with 6 samples.

Results

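Zinc, copper and iron are held at set levels in cells by transporters, storage proteins and binding proteins, and the genes described here encode these. The 38 genes are the protein-coding members of the zinc exporter family Slc30a and the zinc importer family Slc39a, the metallothioneins Mt1 and Mt2 with their regulator Mtf1, the copper transporters Slc31a1, Slc31a2, Atp7a and Atp7b, and the iron genes Slc11a2, Slc40a1, Tfrc, Trf, Fth1, Ftl1 and Hamp. They were found by symbol among the 50686 genes of the deposited count table, and 28 of them had enough counts to be among the 13178 genes tested. The RNA came from the lacrimal glands, which secrete the watery part of tears, of mice 13 weeks old. There were 3 biological replicates of Eda-/- mice, titled Tabby, and 3 of wild-type mice, titled Blacky, all with the strain label C57BL/6. Eda encodes ectodysplasin A, a TNF family ligand that signals through NF-kB while hair, teeth and glands form. The Eda-/- genotype label names no tissue or cell type for the loss, and the labels do not give the origin of the allele, or whether the wild-type mice were littermates.

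Slc30a proteins move zinc out of the cytoplasm, across the cell surface or into organelles, and Slc39a proteins move it into the cytoplasm. Metallothioneins bind surplus zinc and copper, and the zinc-sensing factor Mtf1 switches them on. Iron enters most cells as transferrin bound to the receptor Tfrc, leaves the endosome through Slc11a2, is stored in ferritin made of Fth1 and Ftl1 chains, and leaves the cell through Slc40a1, which the hormone hepcidin, from Hamp, shuts down. In exocrine cells zinc is also taken up by the secretory pathway, where secreted and membrane enzymes acquire it.

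Eda itself had 2, 0 and 0 counts in the Eda-/- libraries, against 41, 48 and 42 in wild-type. Library totals ran from 11894395 to 14480331 counts in Eda-/- and from 13670343 to 15700899 in wild-type. The lacrimal identity of the glands was checked on 10 acinar markers, all of them tested. Their summed level was 130500 to 179500 CPM (counts relative to library size) in Eda-/- and 68080 to 72550 CPM in wild-type, with Mucl2 and Scgb2b24 giving most of it. Of these markers 3 passed as higher and 1 as lower. Of the tested myoepithelial markers 4 of 7 were lower and of the fibroblast markers 3 of 6, with none higher in either list. Of all tested genes 6.21% were called higher and 6.9% lower. The summed level of 6 salivary gland markers was at most 1.48 CPM in any Eda-/- library and at most 0.9998 CPM in any wild-type library, and Smr3a had no counts. CPM values here are scaled by the trimmed mean of M-values (TMM), which sets the typical gene to no change. With plain library totals the median of all tested genes lay at -0.28 (log2), so each direction below is relative to the typical gene.

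In Eda-/- glands the zinc exporters Slc30a7 and Slc30a4, the copper importer Slc31a1 and the zinc importer Slc39a9 rose. The iron transporter Slc11a2 and the metal importer Slc39a8 fell. These 6 of 28 tested genes passed at an adjusted p under 0.05 in edgeR (quasi-likelihood fit, adjusted by Benjamini-Hochberg over all tested genes), against 13.1% of all tested genes. The 4 that rose compare with 6.21% of all tested genes called higher, and the 2 that fell with 6.9% called lower. Scaled by library totals, 2 were higher and 8 lower, against 246 higher and 4365 lower of all tested genes, where TMM gave 819 higher and 909 lower. Without Eda-/- 3, 4 were higher and 0 lower, against 563 and 599 of all genes. Without wild-type 3, 3 were higher and 1 lower, against 621 and 669 of all genes. Wild-type 3 was the library with the most macrophage marker RNA (183 CPM), and the part of this in these counts was not tested. The fold changes were modest: the median log2 fold change (Eda-/- over wild-type) of the 28 was 0.11, against 0.00 for all tested genes, and the values ran from -1.65 to 0.63. The 3 Eda-/- libraries lay entirely above or below the 3 wild-type libraries in 12 of the 28 (42.9%), which held for 32.1% of all tested genes. Of the 12, 8 lay above and 4 below.

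**Figure D1:**
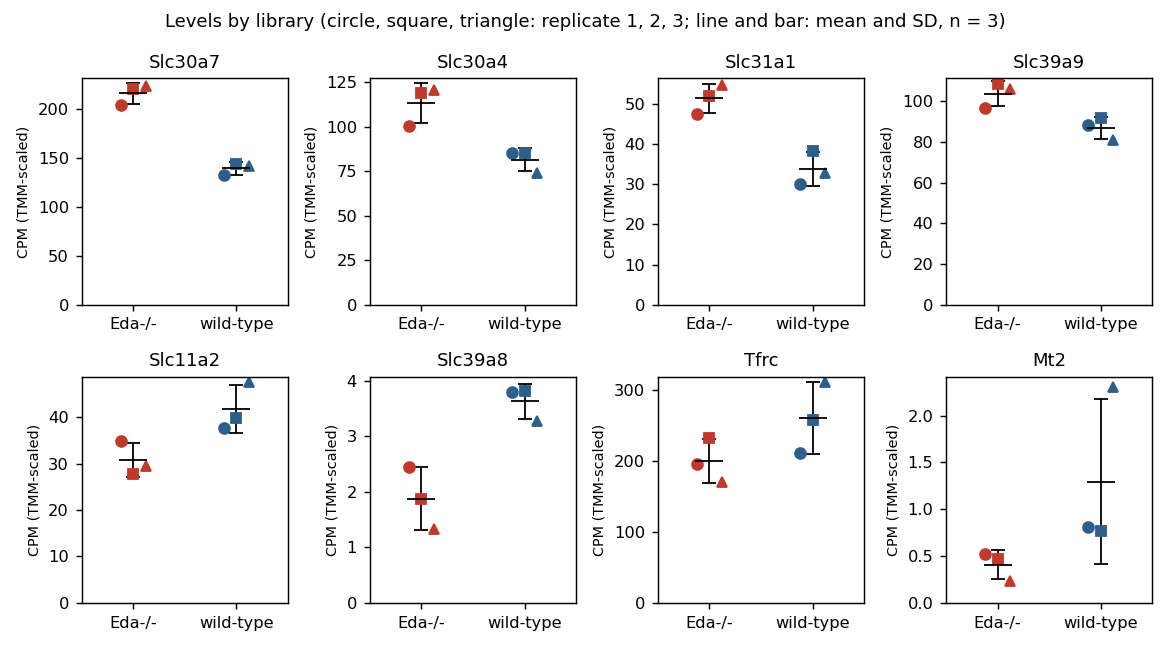
Levels of 8 of the genes by library, as TMM-scaled CPM with each axis starting at 0, Eda-/- on the left of each panel and wild-type on the right; horizontal lines and bars are the mean and SD of 3 libraries. Slc30a7, Slc30a4, Slc31a1 and Slc39a9 are higher in every Eda-/- library, Slc11a2 and Slc39a8 are lower in every one, Tfrc overlaps between the groups, and in Mt2 wild-type 3 (2.31 CPM) stands above the other wild-type libraries.

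Among the zinc exporters, the genes for the Golgi transporter Slc30a7 and the vesicle transporter Slc30a4 rose and no member fell. Of the 10 Slc30a genes 6 were tested. Of these 2 passed as higher and none as lower, against 6.21% and 6.9% of all tested genes. Slc30a7 (ENSMUSG00000054414.4, GRCm38 chromosome 3, 115938973 to 116007406, minus strand) loads zinc into the Golgi. Its counts were 2336, 2347 and 2869 in Eda-/- and 2116, 2449 and 2209 in wild-type. After scaling these were 204, 220.0 and 224 CPM in Eda-/- and 132, 144 and 142 CPM in wild-type. Every Eda-/- library lay above every wild-type library once scaled, while the raw counts overlapped. The log2 fold change was 0.63 (SE 0.07, edgeR adjusted p = 3.28e-05), and it passed under all 17 alternatives tried (0.35 to 0.71). Of the 31-base words in its transcripts, 15.9% also occur in 10 other genes, above all the pseudogene Gm6649, which held at most 4 counts in any Eda-/- or wild-type library.

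Slc30a4 (ENSMUSG00000005802.12, chromosome 2, 122681233 to 122702663, minus strand) moves zinc into secretory vesicles, and mice without it make milk poor in zinc. It had 1146, 1269 and 1545 counts in Eda-/- and 1365, 1445 and 1154 in wild-type. Its level averaged 113 ± 11.4 CPM in Eda-/- and 81.4 ± 6.34 CPM in wild-type (SD, n = 3 each), with no overlap. It rose by 0.48 (log2; SE 0.09, edgeR adjusted p = 0.00179). With plain library totals the value was 0.19 and did not pass (adjusted p = 0.0576). The summed level of the acinar markers was also above wild-type in every Eda-/- library. Of the 10, 3 passed as higher and 1 (Sox10) as lower (6.21% and 6.9% of all tested genes), and 6 did not pass. The part of these markers in the change of the zinc exporters was not tested.

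The other tested exporters did not pass. Slc30a5 and Slc30a6 form a pair that loads zinc onto enzymes in the early secretory pathway. Slc30a6 had 144, 124 and 120 counts in Eda-/- and 149, 143 and 131 in wild-type. Its log2 fold change was 0.36 (SE 0.13, edgeR adjusted p = 0.0862), the scaled libraries did not overlap, and it passed without Eda-/- 3 (0.48, adjusted p = 0.0379). Slc30a5, the more abundant partner at 69.5 ± 3.01 CPM in Eda-/- and 71.0 ± 5.41 CPM in wild-type (SD, n = 3 each), had a log2 value of -0.03 (SE 0.08). Slc30a9 had a log2 value of 0.20 (SE 0.10, edgeR adjusted p = 0.223), with Eda-/- 1 (40.3 CPM) below the other Eda-/- libraries (56.6 and 49.4 CPM), and without that library it passed (0.32, adjusted p = 0.0255). Slc30a1, the exporter of the cell surface and a target of Mtf1, had 274, 250 and 391 counts in Eda-/- and 418, 439 and 270 in wild-type. It overlaps an antisense transcript that was also tested and did not pass. The groups overlapped and the log2 value was 0.17 (SE 0.17, edgeR adjusted p = 0.583).

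The remaining Slc30a genes are known from other tissues and were close to absent. Slc30a2, which fills milk vesicles in the mammary gland, had 1, 0 and 0 counts in Eda-/- and 0, 0 and 2 in wild-type. Slc30a3, of synaptic vesicles, held 4 counts in all of Eda-/- and 1 in all of wild-type. Slc30a8, of insulin granules, held 1 in Eda-/- and 2 in wild-type, and Slc30a10, a manganese exporter, 3 in Eda-/- and 2 in wild-type. These counts are too few for any comparison.

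Of the 14 zinc importers of the Slc39a family 11 were tested. Of these 1 rose and 1 fell, against 6.21% and 6.9% of all tested genes. Slc39a9 (ENSMUSG00000048833.9, chromosome 12, 80643883 to 80683342, plus strand), which releases zinc from the Golgi, had 1107, 1157 and 1357 counts in Eda-/- and 1416, 1557 and 1258 in wild-type. Scaled, these were 96.7, 108 and 106 CPM in Eda-/- and 88.3, 91.6 and 80.8 CPM in wild-type. The groups did not overlap after scaling, and the gene passed as higher by 0.25 (log2; SE 0.08, edgeR adjusted p = 0.0374). It passed under 7 of the 17 alternatives. The call was lost in DESeq2 (adjusted p = 0.0518), among others, and on leaving out any 1 library other than Eda-/- 1 (adjusted p up to 0.136, without wild-type 3). With library totals the value was -0.03.

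Slc39a8 (ENSMUSG00000053897.15, chromosome 3, 135825279 to 135888572, plus strand) carries zinc, manganese and iron into cells, and its human counterpart is known as an NF-kB target in macrophages. It had 28, 20 and 17 counts in Eda-/- and 61, 65 and 51 in wild-type. Every Eda-/- library was below every wild-type library, with means of 1.88 ± 0.56 CPM in Eda-/- and 3.63 ± 0.31 CPM in wild-type (SD, n = 3 each). It fell by 0.96 on the log2 scale (SE 0.24, edgeR adjusted p = 0.0153). The call was lost in DESeq2 (-0.95, adjusted p = 0.0792), without Eda-/- 3 (-0.74, adjusted p = 0.0806) and without wild-type 2 (-0.91, adjusted p = 0.0584). Of 12 macrophage markers 6 were lower and none higher, against 6.9% of all tested genes called lower and 6.21% higher. The summed levels of these markers were 46.2 to 58.2 CPM in Eda-/- and 97.5 to 183 CPM in wild-type, and none of them was at 0. Their part in the fall of Slc39a8 was not tested. In bulk tissue fewer cells of a type and less RNA per cell cannot be told apart.

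The other tested importers had log2 values between -0.08 (Slc39a10) and 0.62 (Slc39a2). Slc39a14, a relative of Slc39a8 that also carries manganese and iron, had 198, 145 and 161 counts in Eda-/- and 192, 187 and 189 in wild-type. Its value was 0.31 (SE 0.12, edgeR adjusted p = 0.120), opposite in sign to that of Slc39a8, and the scaled libraries did not overlap. Slc39a7, which releases zinc from the endoplasmic reticulum, had a value of 0.30 (SE 0.11, edgeR adjusted p = 0.0898) and passed without Eda-/- 2 (0.41, adjusted p = 0.0288). Of its 31-base words 76.8% also occur in Gm20427, a transcript that overlaps it on the same strand and held 4 to 7 counts in every library, so its count is uncertain. Slc39a11, the importer with the highest level per length, had 513, 449 and 547 counts in Eda-/- and 569, 626 and 621 in wild-type (0.21, SE 0.08, edgeR adjusted p = 0.1005). Its scaled libraries did not overlap. The start of Slc39a11 overlaps the start of Cog1 on the opposite strand, and Cog1 rose by 0.97 (log2). The strand setting of the counting is not stated, so the share of such reads is unknown.

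Slc39a1, a broadly expressed importer of the cell surface that has 27.7% of its 31-base words in other genes, had 276, 257 and 310 counts in Eda-/- and 362, 387 and 395 in wild-type. Scaled, it held 24.1 ± 0.05 CPM in Eda-/- and 23.6 ± 1.56 CPM in wild-type (SD, n = 3 each; log2 0.03, SE 0.09). Slc39a4, the intestinal zinc importer lost in the human disease acrodermatitis enteropathica, had 12, 2 and 6 counts in Eda-/- and 3, 11 and 10 in wild-type. The ratio of its summed counts, scaled by summed library size, was 1.16 (95% exact binomial interval 0.607 to 2.19, counting error alone). Slc39a5 held 5 counts in all of Eda-/- and 2 in all of wild-type, and Slc39a12 held 1 in each group.

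**Figure D2:**
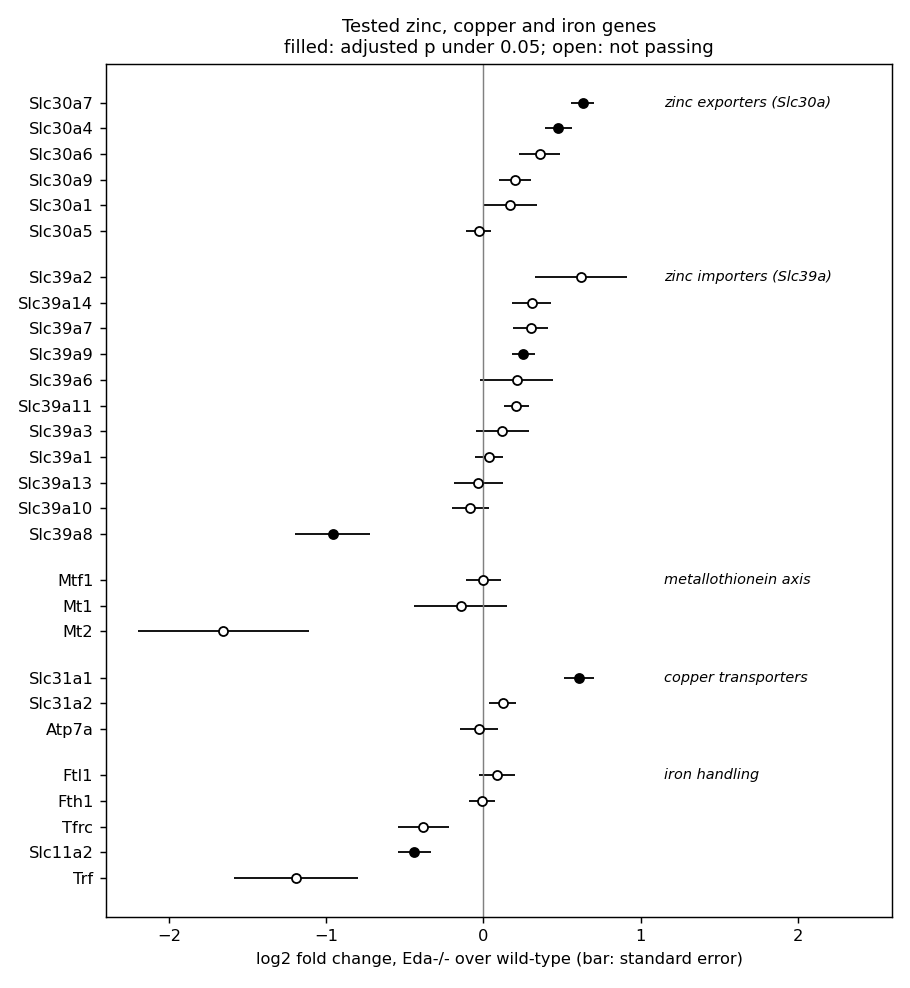
Log2 fold change, Eda-/- over wild-type, of the 28 tested genes by family, with bars for the standard error; filled points passed at an adjusted p under 0.05 over all tested genes. Of the filled points 4 lie right of 0 (0.25 to 0.63) and 2 lie left of it (-0.44 and -0.96), and the widest bars belong to the low-count genes Mt2 and Trf.

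The metallothioneins were scarce in these libraries, and neither they nor Mtf1 passed. Mt1 and Mt2 lie 5513 bases apart on chromosome 8. Mt1 (94179082 to 94180327, plus strand) had 25, 17 and 15 counts in Eda-/- and 23, 30 and 35 in wild-type. Its groups overlapped once scaled (log2 -0.15, SE 0.30, edgeR adjusted p = 0.8004). Mt2 (94172664 to 94173568, plus strand) had 6, 5 and 3 counts in Eda-/- and 13, 13 and 36 in wild-type. Of its 31-base words 58.1% also occur in other genes, above all the antisense Gm45774, which held at most 1 count in any Eda-/- or wild-type library, so its count is uncertain. All 3 Eda-/- libraries were below wild-type, but wild-type 3 alone held more counts than the other wild-type libraries together. Its log2 value was -1.65 (SE 0.54, edgeR adjusted p = 0.0638), and -0.95 without wild-type 3 (adjusted p = 0.253). It passed without wild-type 1 (-1.89, adjusted p = 0.0388), without wild-type 2 (-1.92, adjusted p = 0.0398), with no filter on low counts (-1.66, adjusted p = 0.00606), with library totals (-1.94, adjusted p = 0.0209) and with a trend on GC content and length removed (-1.88, adjusted p = 0.0344). Mtf1 had 132, 122 and 133 counts in Eda-/- and 167, 196 and 177 in wild-type, which scaled to 11.1 ± 0.64 CPM in Eda-/- and 11.1 ± 0.60 CPM in wild-type (SD, n = 3 each; log2 0.00, SE 0.11).

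The targets of Mtf1 carry metal response elements in their promoters, short sites whose core is written TGCACNC or TGCGCNC. A search for these cores, on both strands of the 250 bases before each start in the RefSeq promoter table (GRCm38.p6), found 3 in Mt2, 1 in Mt1 and 1 in Slc30a1. At least 1 match was present in 21.4% of all promoters in the table and at least 3 in 1.26%. Of the 31 metal genes with a promoter in the table, 16 (51.6%) held at least 1 in any of their promoters, and Slc30a10 also held 3. That share counts genes, some with more than 1 promoter, and the 21.4% counts promoters, so the shares are not directly comparable. The promoters of Slc30a7, Slc31a1 and Slc39a9 held no such match, that of Slc30a4 held 2 and a promoter of Slc39a8 held 1. Mt1 has further starts downstream in GENCODE M21, and the window did not cover the bases before those. The stretches that hold the matches are shown for the metal-inducible genes, with the cores in capitals (for Slc30a1 and the last core of Mt2 the site is on the opposite strand).
Mt2, chr8:94172390-94172579, plus strand: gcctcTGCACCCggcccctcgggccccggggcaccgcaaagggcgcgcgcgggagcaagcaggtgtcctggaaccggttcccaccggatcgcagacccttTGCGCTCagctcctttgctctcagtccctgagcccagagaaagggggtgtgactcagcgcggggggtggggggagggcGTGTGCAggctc
Mt1, chr8:94179061-94179077, plus strand: cgctgTGCACACtggcg
Slc30a1, chr1:191906733-191906749, plus strand: gttccGAGTGCAaagca
Beside these, the log2 values were -1.65 for Mt2, -0.15 for Mt1 and 0.17 for Slc30a1, and none of the 3 passed.

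Among the copper genes the importer Slc31a1 rose, and its relative Slc31a2, the most abundant of the 38 genes per length, did not pass. Slc31a1 (CTR1; ENSMUSG00000066150.12, chromosome 4, 62360727 to 62391769, plus strand) brings copper into the cell. It had 545, 555 and 704 counts in Eda-/- and 484, 652 and 513 in wild-type. These scaled to 47.6, 52.0 and 54.9 CPM in Eda-/- and 30.2, 38.4 and 32.9 CPM in wild-type. Every Eda-/- library lay above every wild-type library after scaling, and the raw counts overlapped. The log2 fold change was 0.61 (SE 0.09, edgeR adjusted p = 0.000542), and it passed under all 17 alternatives (0.32 to 0.72). Slc31a2 (CTR2), a vesicle protein tied to copper release and uptake, had 1505, 1228 and 1803 counts in Eda-/- and 1771, 2005 and 1990 in wild-type (129 ± 12.9 CPM in Eda-/- and 119 ± 8.68 CPM in wild-type, SD, n = 3 each). Its log2 value was 0.12 (SE 0.08, edgeR adjusted p = 0.384).

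Slc31a1 lies beside genes with larger changes. Within 1 Mb of it, 5 of 13 other tested genes passed (38.5%, against 13.1% of all tested genes), 4 of them higher. The largest value of the 5 was that of Mup5 (log2 3.71). Alad, a zinc-dependent enzyme of heme synthesis whose gene lies 117399 bases from Slc31a1, had 282, 210 and 262 counts in Eda-/- and 104, 102 and 89 in wild-type (log2 1.83, SE 0.12, edgeR adjusted p = 3.64e-08). Hdhd3, 107238 bases from Slc31a1, had 46, 33 and 55 counts in Eda-/- and 20, 15 and 10 in wild-type (2.03, SE 0.27, edgeR adjusted p = 0.000143). Cdc26, which overlaps Slc31a1 on the opposite strand, was lower (-0.60, edgeR adjusted p = 0.0295). On the side away from Alad, Fkbp15, 178 bases from Slc31a1, was higher (0.30, edgeR adjusted p = 0.0462). Slc31a2, on that same side and 62315 bases from Slc31a1, did not pass. The part of these neighbours in the value of Slc31a1 was not tested. The share of other tested genes that passed within 1 Mb ran from 0 to 50.0% (Slc39a11, 4 of 8) among the 28 tested genes. It was 0 near Slc30a4 and Slc39a8 (0 of 10 each) and near several others, among them Tfrc (0 of 25) and Slc30a1 (0 of 20). Near Slc11a2 5 of 25 passed. The share was 25.0% near Slc30a7 (4 of 16) and 5.88% near Slc39a9 (1 of 17). It was 33.3% near Slc30a6 (3 of 9) and 32.9% near Slc39a7 (23 of 70). Of the 23 near Slc39a7, 12 were higher and 11 lower, with log2 values from -2.50 (H2-DMb1) to 9.42 (H2-Ea-ps). The part of these genes in the value of Slc39a7 was not tested.

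The copper pumps that fill the secretory pathway did not pass or were not tested. Atp7a had 115, 93 and 137 counts in Eda-/- and 172, 162 and 154 in wild-type, scaling to 9.81 ± 1.003 CPM in Eda-/- and 10.1 ± 0.61 CPM in wild-type (SD, n = 3 each; log2 -0.03, SE 0.12). Atp7b, the pump of liver and brain lost in Wilson disease, had 0, 1 and 1 counts in Eda-/- and 1, 3 and 2 in wild-type. Of the 10 other tested copper genes (of 11 listed), none passed in edgeR in either direction, and 1 had an unadjusted p under 0.05, as did 27.5% of all tested genes. They include the chaperones Atox1 (log2 -0.07) and Ccs (0.03), the enzyme Sod1 (0.14) and the peptide-amidating enzyme Pam (-0.05).

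Of the 7 iron genes 5 were tested. Slc11a2 passed as lower and none as higher, against 6.9% and 6.21% of all tested genes. Tfrc, Trf and the ferritin chains Fth1 and Ftl1 were tested and did not pass. Slc11a2 (DMT1; ENSMUSG00000023030.16, chromosome 15, 100387898 to 100425072, minus strand) carries ferrous iron out of the endosome. It had 400, 296 and 379 counts in Eda-/- and 605, 677 and 742 in wild-type. Every Eda-/- library was below every wild-type library, at 34.9, 27.7 and 29.6 CPM in Eda-/- and 37.7, 39.8 and 47.6 CPM in wild-type. It fell by 0.44 on the log2 scale (SE 0.11, edgeR adjusted p = 0.0137). The adjusted p was 0.0605 without Eda-/- 2 (-0.37), 0.066 without Eda-/- 3 (-0.41) and 0.0587 without wild-type 3 (-0.33), so the call rested on these libraries.

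Tfrc (ENSMUSG00000022797.15, chromosome 16, 32608920 to 32632794, plus strand), the transferrin receptor, had the most counts of the 38 genes over all 6 libraries, with 2242, 2485 and 2195 in Eda-/- and 3382, 4396 and 4855 in wild-type. Scaled, it held 196, 233 and 171 CPM in Eda-/- and 211, 259 and 312 CPM in wild-type. The groups overlapped, since Eda-/- 2 lay above wild-type 1. Its log2 value was -0.38 (SE 0.16) and it did not pass in edgeR (adjusted p = 0.189). It passed in DESeq2 (-0.37, adjusted p = 0.0418), with no filter on low counts (-0.38, adjusted p = 0.00038), with library totals (-0.67, adjusted p = 0.0437) and without wild-type 1 (-0.50, adjusted p = 0.0271). Trf, which encodes transferrin itself, had 5, 3 and 6 counts in Eda-/- and 13, 16 and 16 in wild-type. The groups did not overlap, and the log2 value of -1.19 (SE 0.40) missed the threshold (edgeR adjusted p = 0.0604); it passed with library totals (-1.47, adjusted p = 0.012). Of its 31-base words 63.9% also occur elsewhere, above all in Gm20425, an overlapping gene on the same strand that held 0 counts in every library, so its count is uncertain.

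Both ferritin chains overlapped between the groups. Fth1, the chain that oxidises iron, had 923, 737 and 930 counts in Eda-/- and 1201, 1166 and 1247 in wild-type, which scaled to 74.1 ± 5.91 CPM in Eda-/- and 74.5 ± 5.74 CPM in wild-type (SD, n = 3 each; log2 -0.01, SE 0.08, edgeR adjusted p = 0.964). Ftl1, the light chain, had 973, 875 and 870 counts in Eda-/- and 1160, 1077 and 1325 in wild-type (log2 0.09, SE 0.11, edgeR adjusted p = 0.681). For Ftl1, 64.2% of the 31-base words recur in 33 other genes, 17 of them annotated as pseudogenes, so its reads can be assigned to the wrong copy. Slc40a1 (ferroportin), the iron exporter, had 7, 3 and 10 counts in Eda-/- and 6, 15 and 10 in wild-type. The ratio of its summed counts, scaled by summed library size, was 0.898 (95% exact binomial interval 0.485 to 1.63). Hamp had 0 counts in all 6 libraries. A floor of 3 counts allows at most 0.281 CPM in the shallowest library, an Eda-/- one, and the same floor is 0.176 CPM in the deepest, a wild-type one.

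Several iron genes carry iron-responsive elements, hairpins in the untranslated ends of the RNA that iron regulatory proteins bind when iron is low. Binding in the 5′ end blocks translation of ferritin and ferroportin, and binding in the 3′ end keeps the Tfrc RNA from decay. The reference transcripts (GENCODE M21) were searched for a C, 5 bases, the loop CAGTGN and 5 bases that pair with the first 5, G-T pairs included. Of the 38 genes 4 held a match in an untranslated end: Fth1, Ftl1, Slc40a1 and Tfrc. Among all 21175 protein-coding genes with annotated ends, 160 held one (0.756%). The sites are printed because they set apart genes whose RNA level can follow iron (Tfrc) from those whose translation is regulated. Capitals mark the bulged C and the loop.
Fth1, 5′ end: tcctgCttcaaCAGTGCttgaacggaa
Ftl1, 5′ end: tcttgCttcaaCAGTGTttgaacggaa
Slc40a1, 5′ end: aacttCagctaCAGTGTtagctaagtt
Tfrc, 3′ end: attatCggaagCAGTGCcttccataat
Tfrc, 3′ end: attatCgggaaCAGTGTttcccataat
Tfrc, 3′ end: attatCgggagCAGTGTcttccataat
Tfrc, 3′ end: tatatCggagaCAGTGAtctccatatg
The genes with a 5′ site had log2 values of -0.01 (Fth1) and 0.09 (Ftl1), with Slc40a1 too low to be tested, and Tfrc, with 4 sites in its 3′ end, had -0.38. Slc11a2, one of whose alternative 3′ ends is known to carry an element, gave no match to these letters. Counts per gene do not separate its alternative ends. The RNA-binding regulators themselves did not pass: Aco1 had a log2 value of -0.09, Ireb2 of -0.20 and the iron sensor Fbxl5 of 0.01.

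Beyond the 38, 56 further genes of metal handling were listed. Of the 41 tested, 6 passed (14.6%, against 13.1% of all tested genes), 2 higher and 4 lower, and all 6 belong to the iron regulators and enzymes. Steap4, a reductase that turns ferric into ferrous iron and cupric into cuprous copper, had 12.3, 14.9 and 12.6 CPM in Eda-/- and 21.8, 22.3 and 25.9 CPM in wild-type (log2 -0.82, SE 0.11, edgeR adjusted p = 0.000107). Cp, the copper-bearing ferroxidase ceruloplasmin, averaged 11.4 ± 0.94 CPM in Eda-/- and 15.0 ± 1.72 CPM in wild-type (SD, n = 3 each; -0.40, SE 0.12, edgeR adjusted p = 0.0327). The libraries of both genes did not overlap between the groups. Hfe, the MHC-like partner of Tfrc lost in hemochromatosis, had 6, 7 and 8 counts in Eda-/- and 28, 18 and 35 in wild-type. It fell by 1.46 on the log2 scale (SE 0.37, edgeR adjusted p = 0.0166). Slc11a1, the macrophage relative of Slc11a2, had 13, 6 and 14 counts in Eda-/- and 29, 27 and 47 in wild-type. It fell by 1.17 on the log2 scale (SE 0.35, edgeR adjusted p = 0.0364).

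In the other direction, the iron-sulfur cluster genes Iscu and Nfs1 rose. Iscu, the scaffold on which clusters are built, had 30.03, 26.7 and 27.1 CPM in Eda-/- and 18.7, 22.4 and 21.4 CPM in wild-type (log2 0.42, SE 0.09, edgeR adjusted p = 0.00818). Nfs1, the enzyme that supplies the sulfur, had 26.9, 21.6 and 21.8 CPM in Eda-/- and 17.2, 16.2 and 18.7 CPM in wild-type (0.43, SE 0.10, edgeR adjusted p = 0.0133). Both genes were higher in every Eda-/- library. Lactoferrin (Ltf), the iron-binding protein of tears, did not pass at 749 ± 53.3 CPM in Eda-/- and 704 ± 105 CPM in wild-type (SD, n = 3 each; log2 0.09). The heme genes Hmox1 (0.28), Alas1 (-0.35) and Slc48a1 (-0.60) did not pass, and none of the 9 tested heme genes did in edgeR, where 1 had an unadjusted p under 0.05 (27.5% of all tested genes did). Macrophage markers were lower, as given for Slc39a8. Of 5 tested genes of red cells 3 were lower, against 6.9% of all tested genes. Summed levels over the list were 5.22 to 14.9 CPM in Eda-/- and 19.6 to 29.2 CPM in wild-type. The part of these macrophage and red cell genes in the values of Hfe, Slc11a1, Tfrc and Trf was not tested.

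Per kilobase of exon, Slc31a2 had the highest level of the 28 tested genes in both groups and Trf, whose count is uncertain as given above, the lowest. Slc31a2 stood at 63.5 ± 6.35 CPM per kilobase in Eda-/- and 58.4 ± 4.27 in wild-type (SD, n = 3 each). Ftl1 (58.4 in Eda-/- and 54.9 in wild-type), Tfrc (32.3 in Eda-/- and 42.1 in wild-type) and Fth1 (21.4 in Eda-/- and 21.5 in wild-type) followed, and Slc31a2 and Ftl1 did not differ beyond their spread. Slc30a4 and Slc30a7 were the zinc transporters with the highest levels, at 20.6 and 19.4 CPM per kilobase in Eda-/- and 14.9 and 12.5 in wild-type. Slc31a1 stood at rank 8 in Eda-/- and rank 11 in wild-type. Exon length is the union over all annotated transcripts, so genes with long rarely used ends are set too low.

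**Figure D3:**
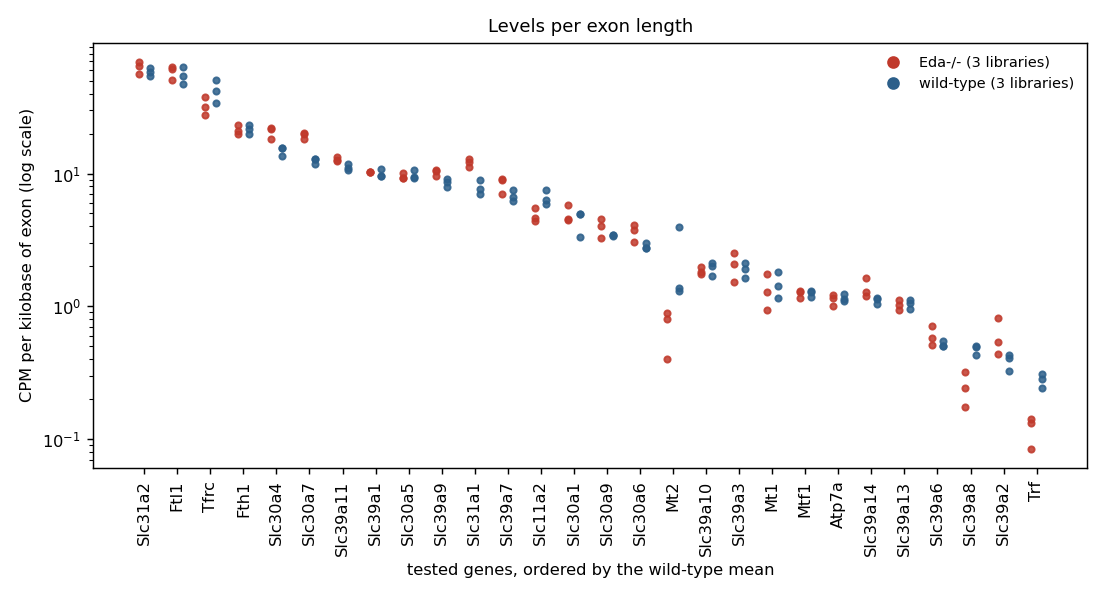
Levels of the 28 tested genes in TMM-scaled CPM per kilobase of exon on a log axis, ordered by the wild-type mean; each point is 1 library, Eda-/- left of wild-type. Slc31a2, Ftl1, Tfrc and Fth1 lead in both groups and Trf, at 0.119 in Eda-/- and 0.279 in wild-type, is lowest.

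**Figure D4:**
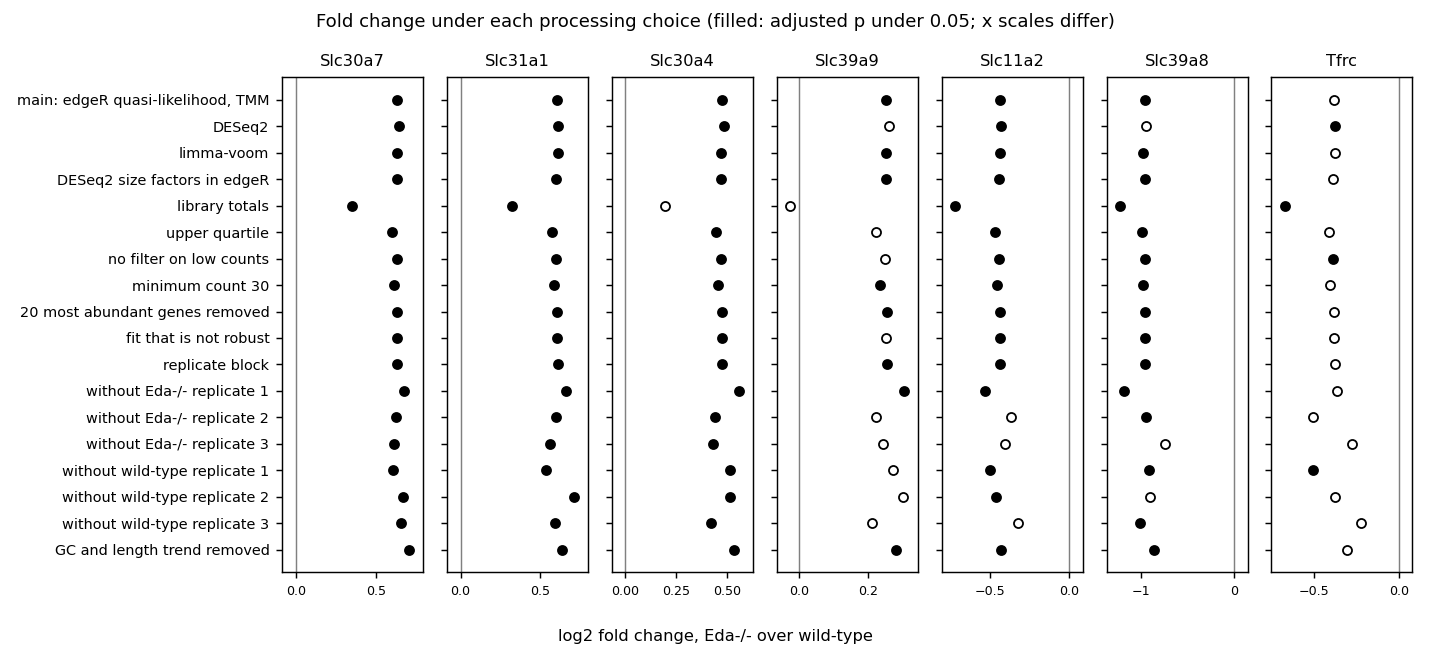
Log2 fold change of the 6 genes that passed and of Tfrc under each way of processing the counts; filled points passed at an adjusted p under 0.05, and the x axis of each panel has its own scale. Slc30a7 and Slc31a1 are filled throughout, Slc30a4 is open with library totals (0.19), and Slc39a9, Slc11a2 and Slc39a8 are open in some fits that leave out a library. Slc39a9 and Slc39a8 are also open in DESeq2, and Slc39a9 is open in 10 of the 17 alternatives. Tfrc is filled in 4 of the alternatives.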

How the data were processed

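Total RNA from 3 Eda-/- and 3 wild-type lacrimal glands was depleted of ribosomal RNA and made into strand-marking libraries, per the labels' protocols. The authors deposited raw counts per gene, made with Trimmomatic, STAR and featureCounts on GRCm38.p5, per the submitters' processing notes; the sources used here do not give versions, annotation release or strand setting. Of 50686 gene IDs, 50462 matched GENCODE M21, which gave symbols and GRCm38 coordinates. Every count column was matched to a sample by its name, and 0 columns were left unmatched.

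Genes were filtered (edgeR filterByExpr, minimum count 10), which left 13178, scaled by TMM and tested with edgeR 4.0.16 (R 4.3.3; robust quasi-likelihood, Benjamini-Hochberg adjustment, threshold 0.05). Deposited totals of 11894395 to 15700899 counts per library give wide errors for genes with few counts. The fit was tested on simulated data. Alternatives were DESeq2 1.42.0, limma 3.58.1 (voom), other scalings and filters, a replicate block, leaving out each library and, chosen after seeing the data, a fit with the GC and length trend taken out. Counts of different replicates differed by more than sampling noise. Deviations of same-numbered libraries correlated at -0.094 to 0.021, and those of differently numbered ones at -0.048 to 0.077. No pairing by replicate number was seen, though 3 libraries per group cannot exclude one.

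The genes and lists were chosen with earlier results of these data known. Per-library values are given for each gene that passed, the 8 with the highest level per kilobase, and a fixed set of metallothionein, zinc, copper and iron genes; the other genes are given by range, except Slc30a6, Slc30a9, Slc39a1 and Slc39a7 and the neighbours of Slc31a1, which were chosen after their values were seen. Of the genes untested for low counts, Slc39a4 and Slc40a1 are compared by a ratio with an exact binomial interval. The ratio is that of summed counts, scaled by the summed TMM-scaled library sizes of each group. The other untested genes are given by their counts.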

Additional observations from a re-analysis of the deposited data

How the results depend on the processing

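Of the 28 tested genes, 4 passed as higher and 2 as lower in Eda-/-, against 819 and 909 of all tested genes. With library totals the counts were 2 higher and 8 lower, against 246 and 4365 of all genes. With no filter on low counts 3 metal genes were higher and 4 lower, against 909 and 1233 of all genes. DESeq2 called 3 metal genes higher and 2 lower, against 576 and 593 of all genes. Leaving out 1 library in turn gave 3 to 5 metal genes higher and 0 to 4 lower, against 561 to 677 and 599 to 834 of all genes; no metal gene was lower without Eda-/- 3. A replicate block gave 4 and 2 metal genes, against 712 and 896 of all genes, and no pairing by replicate number was seen. Slc39a9, which passed, and 8 others turned negative with library totals: Slc39a9 -0.0262, Ftl1 -0.19, Slc30a1 -0.11, Slc30a9 -0.0823, Slc31a2 -0.16, Slc39a1 -0.25, Slc39a11 -0.0736, Slc39a3 -0.16 and Slc39a6 -0.0703, the cause being the median shift of -0.28 given for that scaling. The other changes of sign are of genes near 0 that did not pass: Fth1 0.00135 and Mtf1 0.0086 in DESeq2, Mtf1 0.000197 with the replicate block, and Atp7a 0.00312, Ftl1 -0.0882, Mtf1 0.0427 and Slc30a5 0.024 with the GC and length trend removed; their cause was not tested. Leaving out 1 library gave ranges of -0.0924 to 0.0502 for Atp7a, -0.0681 to 0.0548 for Fth1, -0.399 to 0.0683 for Mt1, -0.0373 to 0.0527 for Mtf1, -0.0634 to 0.0428 for Slc30a5, -0.0875 to 0.0281 for Slc39a13 and -0.0422 to 0.29 for Slc39a3. Low counts limit Mt2, Trf, Slc39a8, Hfe, Slc11a1 and the 10 untested genes. Alternative fits are given for the 28 tested genes and not for Hfe and Slc11a1.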
